A study of Caenorhabditis elegans with 2 samples.

Results

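Small nucleolar RNA (snoRNA) genes are the subject here: the 346 genes of biotype snoRNA on the nuclear chromosomes, out of 46890 nuclear genes in Ensembl release 115 of the Caenorhabditis elegans assembly WBcel235 (ce11). They were taken by annotation alone, with no use of binding values. By place, 169 lay wholly within introns of coding genes, 124 overlapped no coding gene, and 53 overlapped an exon of a coding gene. They were 54 to 344 bp long, with a median of 130 bp, and no 2 of them had the same sequence. They were scored by LIN-35 ChIP-seq, which recovers DNA crosslinked to LIN-35. This is the worm's only pocket protein of the retinoblastoma family, and it works within the DREAM repressor complex.

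The study has 1 group of 2 samples, labelled biological replicates 1 and 2, of whole young adults with both sexes pooled and no age given. The strain is YL521. It carries unc-119(ed3) III and the integrated transgene vrIs117, in which pPIE-1 drives LIN-35:GFP:FLAG followed by the PUF-5 3'UTR, with unc-119 (+) alongside. Both regulatory sequences, from pie-1 and puf-5, are known for expression in the germ line. The antibody is listed as lin-35, and how far the DNA came with tagged or with endogenous protein is not stated. With 1 group there is no contrast between conditions, so the comparisons are between the replicates and between classes of genes. A whole-animal library cannot say in which cells a peak arose.

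Most snoRNAs guide chemical modification of ribosomal and spliceosomal RNA. Box C/D snoRNAs act with fibrillarin in 2′-O-methylation, and box H/ACA snoRNAs act with dyskerin in pseudouridylation. In many animals snoRNAs are cut out of the introns of host genes. In C. elegans some snoRNA genes, intronic ones included, have promoters of their own, and a subset is transcribed by RNA polymerase III. That polymerase reads tRNA genes from internal A and B boxes, and it or RNA polymerase II reads snRNA genes from a proximal sequence element upstream. In mammals, retinoblastoma-family proteins are known both for holding down E2F target genes and for restraining RNA polymerase III.

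The DNA just before the genes differed between members with and without a LIN-35 summit, so it is shown first. Each run below has the 90 bases before a gene and its first 10 bases, in ce11 and in the direction of transcription. Capitals in the first set mark the A box word TGGNNNAG and the B box word GTTCNANNC, shortened forms of the tRNA promoter boxes; capitals that run on without a break are A box words placed end to end. The words were chosen after these windows had been seen. The first 4 genes had a summit, and the last pair, C04G6.12 and Y59E1B.14, had none on the thresholded list. The windows are T03F7.8 at chrV:11314168-11314267, plus strand, Y75B12B.12 at chrV:15191084-15191183, minus strand, F55A11.10 at chrV:11782902-11783001, plus strand, F30H5.4 at chrIII:502714-502813, plus strand, C04G6.12 at chrII:5105222-5105321, minus strand and Y59E1B.14 at chrX:1891419-1891518, plus strand.
T03F7.8: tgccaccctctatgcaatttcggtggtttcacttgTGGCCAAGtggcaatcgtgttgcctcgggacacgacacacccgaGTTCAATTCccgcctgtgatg
Y75B12B.12: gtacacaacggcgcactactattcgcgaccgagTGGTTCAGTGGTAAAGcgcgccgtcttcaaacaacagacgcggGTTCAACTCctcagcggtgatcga
F55A11.10: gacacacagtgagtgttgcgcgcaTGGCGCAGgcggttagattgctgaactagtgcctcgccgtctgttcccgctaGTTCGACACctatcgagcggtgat
F30H5.4: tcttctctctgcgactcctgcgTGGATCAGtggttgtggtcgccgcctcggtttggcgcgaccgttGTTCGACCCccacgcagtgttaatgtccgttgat
C04G6.12: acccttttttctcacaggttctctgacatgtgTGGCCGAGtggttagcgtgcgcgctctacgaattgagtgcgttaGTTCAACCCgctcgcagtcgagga
Y59E1B.14: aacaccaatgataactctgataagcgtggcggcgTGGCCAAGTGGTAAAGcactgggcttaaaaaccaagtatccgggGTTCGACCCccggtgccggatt

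The second set shows another arrangement, AACNCG followed after 5 bases by TGTC, called the upstream word pair here. Capitals mark both parts of the pair. The first 4 genes had a summit, and C02C6.13 and C07A9.14 had none on the thresholded list. The windows are Y53F4B.47 at chrII:15025884-15025983, minus strand, ZK994.7 at chrV:8500489-8500588, plus strand, C08D8.3 at chrV:8349018-8349117, plus strand, F01D5.12 at chrII:14018432-14018531, minus strand, C02C6.13 at chrX:15552478-15552577, minus strand and C07A9.14 at chrIII:9717290-9717389, plus strand.
Y53F4B.47: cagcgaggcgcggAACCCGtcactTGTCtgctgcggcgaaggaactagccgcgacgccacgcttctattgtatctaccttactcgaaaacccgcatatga
ZK994.7: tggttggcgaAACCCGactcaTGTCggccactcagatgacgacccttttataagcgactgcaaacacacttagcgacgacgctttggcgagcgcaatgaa
C08D8.3: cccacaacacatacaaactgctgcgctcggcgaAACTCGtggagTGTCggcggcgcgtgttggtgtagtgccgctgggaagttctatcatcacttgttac
F01D5.12: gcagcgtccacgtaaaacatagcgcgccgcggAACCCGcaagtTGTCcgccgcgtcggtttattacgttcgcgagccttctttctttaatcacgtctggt
C02C6.13: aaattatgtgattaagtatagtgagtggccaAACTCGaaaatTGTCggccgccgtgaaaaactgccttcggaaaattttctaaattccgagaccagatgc
C07A9.14: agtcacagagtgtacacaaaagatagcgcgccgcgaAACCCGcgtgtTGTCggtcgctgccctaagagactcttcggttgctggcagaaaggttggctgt

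A whole gene of each snoRNA type completes the display. F55A11.10 (chrV:11782992-11783082, plus strand) has the C box word TGATGA near its start and the D box word CTGA near its end, in capitals. Y53F4B.48 (chrII:15165894-15166028, minus strand) has the ACA of H/ACA snoRNAs near its end, in capitals.
F55A11.10: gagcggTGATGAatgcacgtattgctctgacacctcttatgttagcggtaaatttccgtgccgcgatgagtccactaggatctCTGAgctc
Y53F4B.48: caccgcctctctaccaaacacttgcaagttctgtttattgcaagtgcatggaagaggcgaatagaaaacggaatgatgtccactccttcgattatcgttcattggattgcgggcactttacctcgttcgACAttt

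LIN-35 summits lay at about 1 in 5 snoRNA genes. A gene was called when a summit of the authors' thresholded list, which holds 2712 peaks, lay within 100 bp of the gene body. That was so for 68 of the 346 snoRNA genes, or 19.7% (95% Wilson interval 15.8 to 24.2, for counting error only), against 3.89% of all nuclear genes. Of the other nuclear genes no longer than 344 bp, 2.59% were called, and 6.66% once piRNA genes were left out. Both of these classes hold tRNA and snRNA genes. Genes of matched length were not compared, so the part of length was not tested. Among the classes, tRNA genes had the highest share shown, with 190 of 612 (31%, 27.5 to 34.8), and 17 of 129 snRNA genes were called (13.2%, 8.39 to 20.1). The shares were 5.53% of ncRNA genes, 5.4% of coding genes, 1.92% of miRNA genes and 0.0521% of piRNA genes. The control was not analysed here, so whether peaks at snoRNA and tRNA genes also occur in it was not tested. The snoRNA interval overlaps that of snRNA genes and lies below that of tRNA genes and above those of the other classes named.

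**Figure D1:**
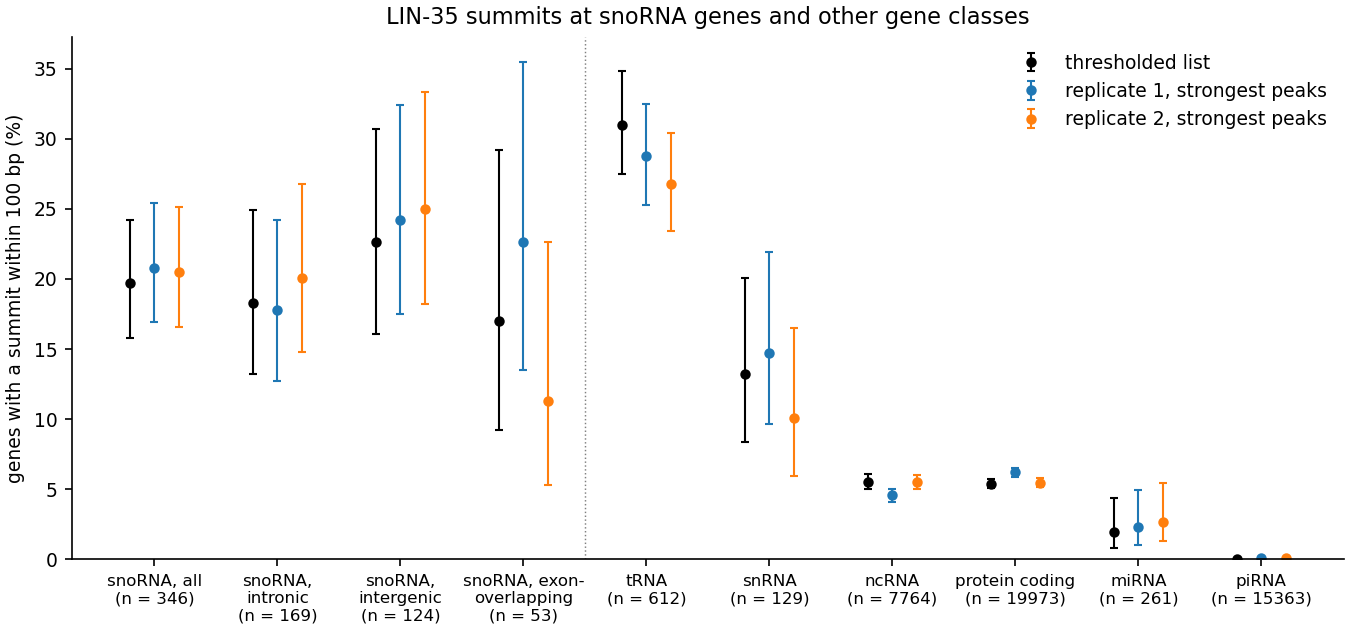
Share of genes with a LIN-35 summit within 100 bp of the gene body (y axis, percent) for snoRNA genes by place, left of the dotted line, and for other gene classes, right of it. Points are the thresholded list, replicate 1 and replicate 2, and bars are 95% Wilson intervals; snoRNA genes stood at 19.7%, 20.8% and 20.5%.

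Each replicate by itself gave nearly the same share. With the replicate lists shortened to their 2712 strongest peaks, 72 snoRNA genes (20.8%) had a summit in replicate 1, where 4.06% of all nuclear genes did. In replicate 2 there were 71 (20.5%), against 3.87%. Both replicates held 59 of these genes, 13 were in replicate 1 alone and 12 in replicate 2 alone. Genes in both made up 70.2% of the snoRNA genes in either, against 44.1% for tRNA genes and 42.5% for all nuclear genes. Thresholded peaks at snoRNA genes were also stronger, with a median rank of 720 against 1382 at tRNA genes. The part of peak strength in this overlap was not tested. By place the overlap was 73% for intronic, 79.4% for intergenic and 38.5% for exon-overlapping members. The last class thus differed most between the replicates, with 12 of its 53 members in replicate 1 and 6 in replicate 2.

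The relaxed lists, which also hold background peaks, separated snoRNA genes less from the rest. In the pooled relaxed list 134 members had a summit (38.7%), against 19.9% of all nuclear genes. Replicate 1 gave 135 members against a background of 23.3%, and replicate 2 gave 136 against 19.8%. Of the 68 called members, 65 had a summit in both relaxed replicate lists and 54 among the strongest peaks of both. The 3 others lacked a summit in 1 replicate: F39B2.14 in replicate 2, and T24H7.6 and R12E2.17 in replicate 1. Of the 278 uncalled members, 168 had no summit in either relaxed list. The 66 uncalled members in the pooled relaxed list had signals of 4.47 to 40.7, with a median of 15.1, all under the lowest signal of the thresholded list, 41.9. Called members had the same signals on both of these lists, 42.5 to 311, so that bound follows from how the thresholded list was cut.

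**Figure D2:**
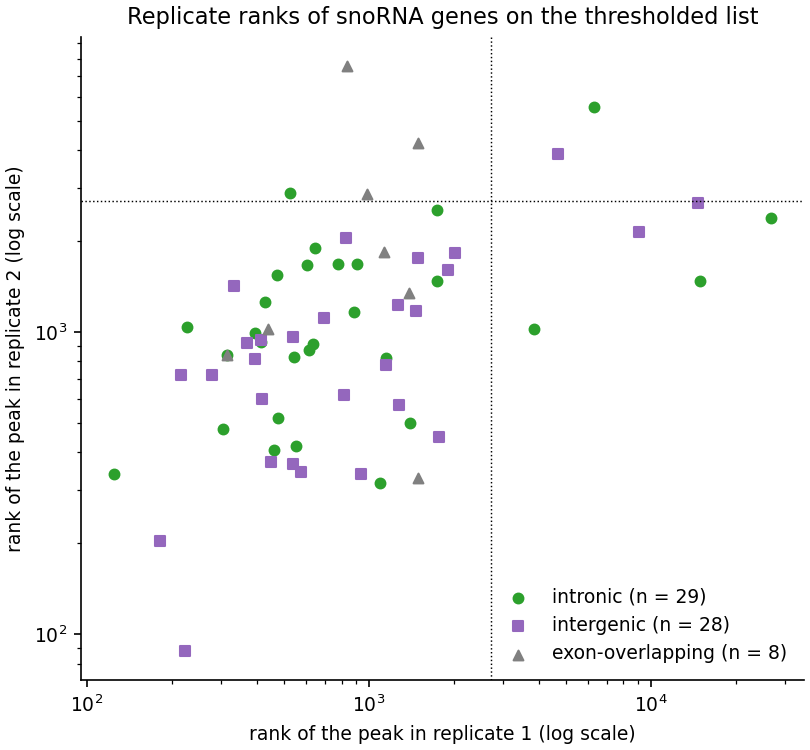
Rank of the strongest peak within 100 bp of each called snoRNA gene in the replicate 1 list (x axis, log scale) and the replicate 2 list (y axis, log scale), for the 65 called genes with a peak in both. Dotted lines mark rank 2712; 54 of the 68 called genes have a peak inside both lines, and symbols give the place of the gene.

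Intronic and intergenic snoRNA genes were called at shares that could not be told apart. Of the intronic members 31 of 169 were called (18.3%, 13.2 to 24.9), and of the intergenic members 28 of 124 (22.6%, 16.1 to 30.7). The difference, intronic minus intergenic, was −4.24 percentage points with a 95% interval of −13.8 to 4.95. It was −6.44 points in replicate 1 (17.8% against 24.2%) and −4.88 in replicate 2 (20.1% against 25%), and both intervals include 0. Set against the genome, 0.587% of all intronic and 1.36% of all intergenic windows of 130 bp had a summit within 100 bp. The exon-overlapping members stood at 9 of 53 (17%, 9.2 to 29.2). Chromosome X had 3 called members of 33 (9.09%, 3.14 to 23.6), against 65 of 313 on the autosomes (20.8%, 16.6 to 25.6), and these intervals overlap.

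Close to coding 5′ ends, intronic members were called less often than intergenic ones. Within 500 bp of such an end, 3 of 44 intronic members were called (6.82%, 2.35 to 18.2), against 11 of 26 intergenic ones (42.3%, 25.5 to 61.1). The difference there was −35.5 points (−54.8 to −15.2), with −43.2 in replicate 1 and −35.5 in replicate 2. Farther away, 28 of 125 intronic members (22.4%, 16 to 30.5) and 17 of 98 intergenic members (17.3%, 11.1 to 26) were called, a difference of 5.05 points (−5.75 to 15.2). Over all members, 16 of 76 near a coding 5′ end (21.1%) and 52 of 270 farther away (19.3%) were called. A summit within 500 bp of a coding 5′ end belonged to 13 of the 68 called members, and it was nearer to the coding end than to the snoRNA 5′ end for 1 of them. A called summit lies within 100 bp of a snoRNA gene by rule, so this count favours the snoRNA end. A peak counted at a snoRNA gene and at a coding promoter cannot be assigned to 1 of them from position alone.

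Host genes with a LIN-35 summit at their own 5′ end did not have more called snoRNA genes inside them. Of the 56 intronic members whose host had a summit within 500 bp of its 5′ end, 5 were called (8.93%, 3.87 to 19.3). These 56 lay in 39 hosts. Of the 113 whose host had none, in 110 hosts, 26 were called (23%, 16.2 to 31.6). Both intervals count members as if separate, though members of the same host share its state. One group was the 19 members in 13 ribosomal protein genes such as rpl-6 and rps-12, where 15 members had a host with a summit at its 5′ end. None of the 19 was called on the thresholded list or among the strongest peaks of either replicate, which allows a share of up to 15.8%. None of them carries the B box word or the upstream word pair, and intronic members with neither were called in 9 of 131 cases (6.87%). The part of the host apart from these words was not tested. Hosts of called members were varied: mix-1 encodes a condensin SMC protein, unc-70 a spectrin, rpn-8 a proteasome subunit, fars-1 an aminoacyl-tRNA synthetase and inx-11 an innexin. Members on the strand opposite to their host were called in 8 of 27 cases (29.6%, 15.9 to 48.5) and those on the same strand in 23 of 141 (16.3%, 11.1 to 23.3).

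The signals at called members were above those of most thresholded peaks but far from the top of the list. The signal is the authors' value per peak, on a scale that is not stated, so it is compared only within a list. The 68 called members rested on 67 peaks, since C51F7.3 and C51F7.4 share 1. Those 67 had a median signal of 106 (42.5 to 311) and a median rank of 720, against a median of 67.8 for the other nuclear peaks. Of the 67 peaks, 54 (80.6%) had a summit within 200 bp among the strongest of both replicates, against 52.3% of the other nuclear peaks. Peaks of matched signal were not compared. None of the 67 also lay within 100 bp of a tRNA gene. Median signals at called members were 95 for intronic (42.8 to 235), 115 for intergenic (46.8 to 311) and 83.5 for exon-overlapping members (42.5 to 139).

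The highest signal was at Y53F4B.47 (WBGene00045141, chrII:15025814-15025893, minus strand), an intergenic gene of 80 bp that carries the upstream word pair and the D box word. Its signal was 311 on the thresholded list, 82.9 in replicate 1 (rank 222) and 244 in replicate 2 (rank 88). F09G2.14 (WBGene00219888, chrV:7196237-7196580), the longest member, followed with 247, and with 95.8 in replicate 1 (rank 182) and 152 in replicate 2 (rank 203). Its summit lay 76 bp before the gene, whose nearer edge is 100 bp from a coding 5′ end. The ranks of both genes in the replicates ran from 88 to 222.

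Other intergenic members of high signal came in a narrow range. Y75B12B.12, with A and B box words, had 164 (54.7 in replicate 1 and 103 in replicate 2). M7.15 had 162 (47.6 and 107 in replicates 1 and 2), and Y53F4B.48, which ends in an ACA word, had 157 (49.5 and 104). These 3 genes lay 203, 492 and 163 bp from a coding 5′ end, measured from the nearer edge of the gene. T19B4.8, with both box words and 4890 bp from any coding 5′ end, had 144 (84.1 in replicate 1 and 68.8 in replicate 2). The intergenic genes ZK265.10, T06C12.16, C36E8.11, F30H5.4 and ZK484.11 had signals of 136, 135, 132, 129 and 124. T10B9.11, C53B7.8, F32E10.10 and Y23H5B.10 had signals of 117, 116, 115 and 115. C53B7.8 is on chromosome X, and Y23H5B.10 was the farthest of these from a coding 5′ end, at 16034 bp.

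Among intronic members ZK994.7 stood highest (WBGene00044958, chrV:8500579-8500645). It lies in an intron of pxn-1, a peroxidasin gene, 5690 bp from the nearest coding 5′ end, and carries the upstream word pair. Its signal was 235, with 125 in replicate 1 (rank 125) and 108 in replicate 2 (rank 338). T03F7.8, within cutl-18 on the other strand, had 171 (69.1 in replicate 1 and 88.6 in replicate 2). F55A11.10, in F55A11.6, had 149 (53.8 and 97.8 in replicates 1 and 2). Y38F2AR.14 had 148, with 32.6 in replicate 1 and 113 in replicate 2. ZK484.9 in haf-9, an ABC transporter gene on the other strand, had 143, and D1046.6 in cfim-2 had 142. C08D8.3, C51F7.3 in frm-7, B0334.12 in twk-5, a potassium channel gene on the other strand, and F01D5.12 had 129, 126, 120 and 113. Of these 10 genes, F55A11.10 alone lay near a coding 5′ end, at 67 bp, and the others were 548 bp or more away.

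The 9 called exon-overlapping members were led by T02E1.9 with a signal of 139, in spe-12, a sperm activation gene. Its replicate signals were 27.5 in replicate 1 (rank 1493) and 110 in replicate 2 (rank 328). C51F7.4, T27A3.9 and F39B2.14 had 126, 108 and 106. T23G11.12, F58D5.11, F07A11.15 in din-1, ZK546.18 and F29G9.19 in fos-1 had 83.5, 63.6, 56.9, 53.5 and 42.5. All 9 were among the strongest peaks of replicate 1, and 5 were among those of replicate 2.

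Five-prime ends were where the summits sat. Of the 68 called members, 52 had their strongest summit upstream of the gene, 13 inside it and 3 downstream, and 42 had it within the 70 bp before the gene. The median position was −33.5 bp from the 5′ end (−93 to 237), −29 for intronic and −42.5 for intergenic members. In replicate 1 the median was −18.5 bp, with 47 upstream, 21 inside and 4 downstream, and in replicate 2 it was −35 bp, with 55, 12 and 4. Counting every summit around every member, the thresholded list had 52 in the 100 bp before the 5′ end and 12 in the 100 bp after it. The corresponding counts were 47 and 20 in replicate 1 and 55 and 12 in replicate 2. In the next 100 bp upstream, the thresholded list had 3 summits, replicate 1 had 4 and replicate 2 had 2.

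**Figure D3:**
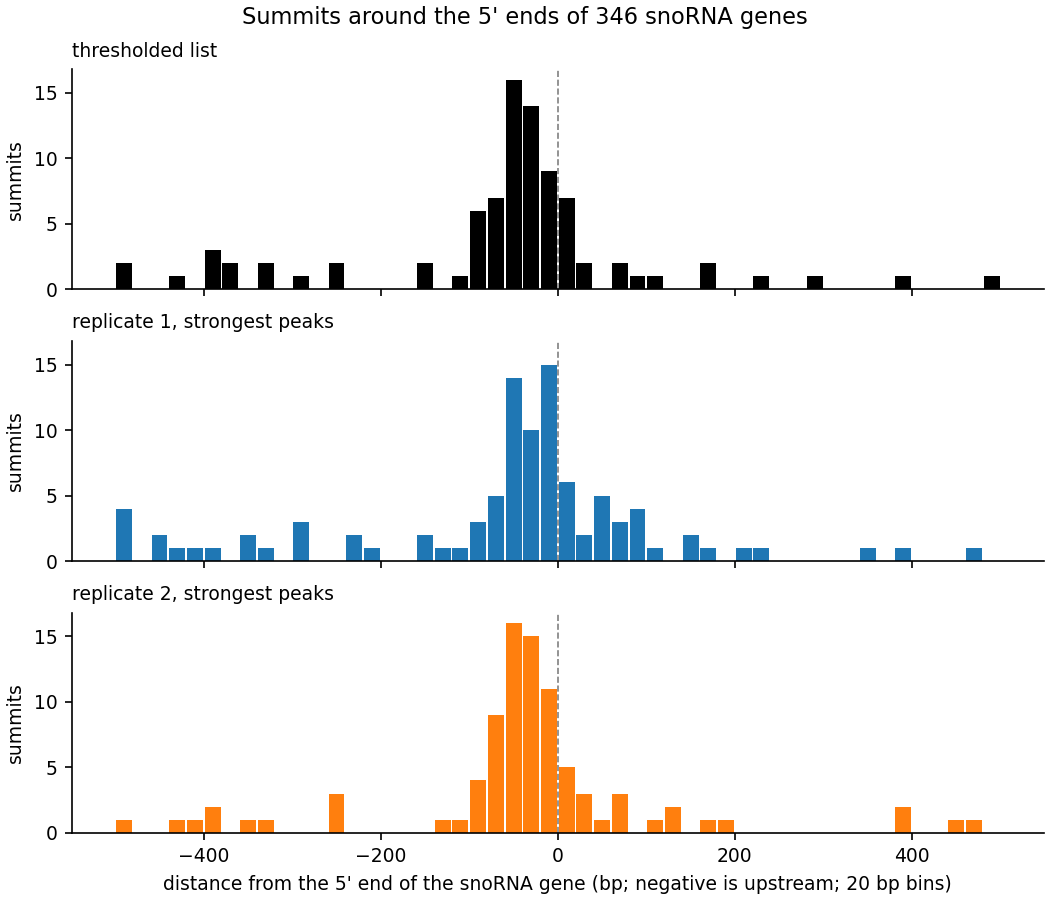
Number of summits (y axis) by distance from the 5′ ends of the 346 snoRNA genes (x axis, bp, negative upstream, bins of 20 bp) in the thresholded list and in the strongest peaks of each replicate. The counts gather in the 100 bp before the 5′ end, with 52 summits there on the thresholded list and 3 in the 100 bp before that.

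Members with both A and B box words were called far more often than the rest. The words were chosen after the values had been seen, so the shares and intervals only describe these genes. In the window from 100 bases before to 20 bases after the 5′ end, 18 members had both words on the strand of the gene. The share was 5.2%, against 0.0967% of all other nuclear genes and 0.289% when the other strand of the members' windows was read. Of these 18, 16 were called (88.9%, 67.2 to 96.9), against 52 of the 328 others (15.9%, 12.3 to 20.2). Replicate 1 held 15 of the 18 and replicate 2 held 16. By place, 8 of 9 intronic, 7 of 8 intergenic and the 1 exon-overlapping member with both words were called. Among other nuclear genes, 45 had both words in the same window and 4 of those were called (8.89%, 3.51 to 20.7). The B box word was in the gene bodies of 95.9% of tRNA genes, as tRNA promoters are internal.

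The 2 uncalled genes with both words were Y59E1B.14 and C04G6.12. Y59E1B.14, on chromosome X, had no summit in any list. C04G6.12 lies in an intron of mpk-2, a MAP kinase gene on the other strand. It was among the strongest of both replicates, with 77 in replicate 1 (rank 246) and 45.8 in replicate 2 (rank 1323). It had no summit within 100 bp in the pooled list, from which the thresholded list comes. Among the 16 called genes the A box word began at a median of −59.5 bp and the B box word at −14 bp, with 35 to 55 bp between their starts. Their summits had a median of −43 bp, and 9 of the 16 lay within the stretch from the A box word to the end of the B box word.

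**Figure D4:**
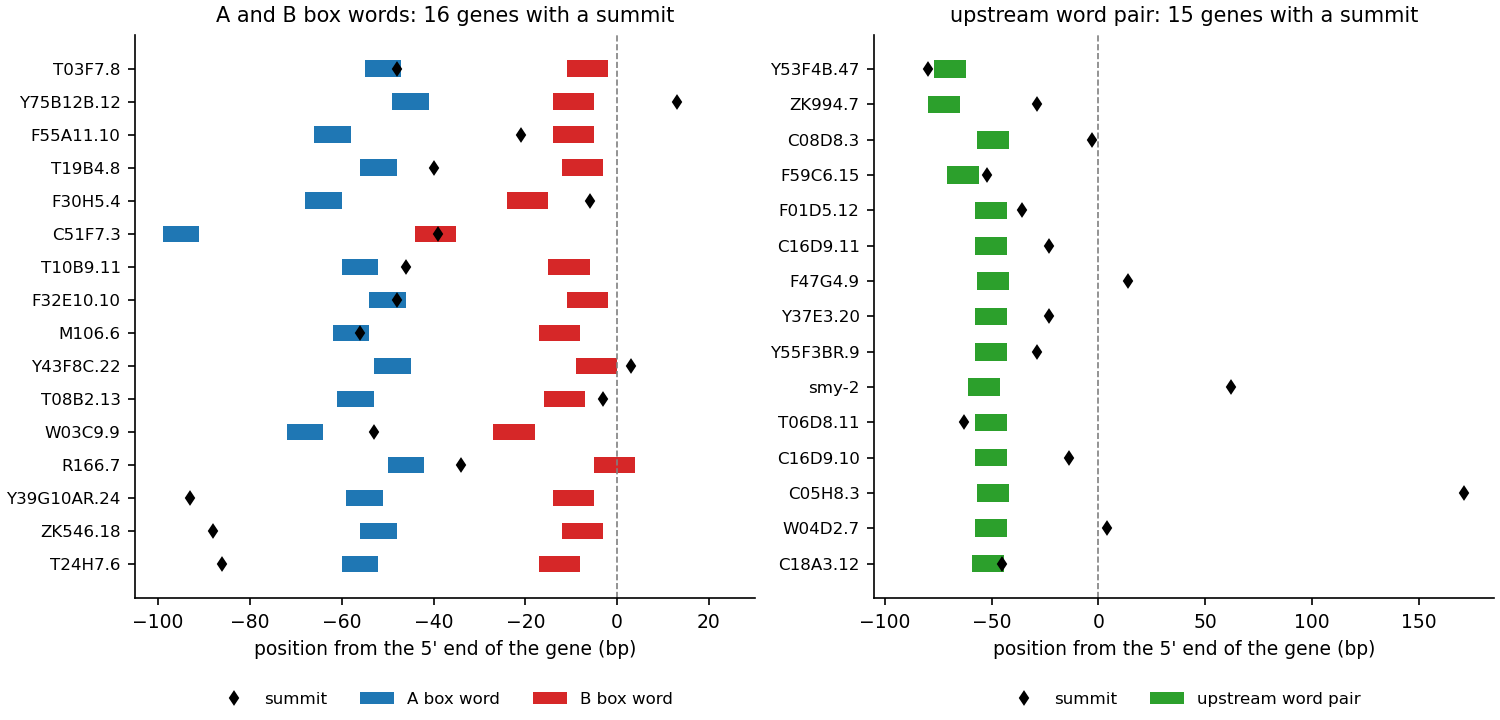
Positions of the A box word, the B box word and the summit of the thresholded list for the 16 called genes with both box words (left), and of the upstream word pair and the summit for the 15 called genes with the pair (right), in bp from the 5′ end of the gene. Genes run from highest signal at the top; the starts of the 2 box words are 35 to 55 bp apart, and most summits lie between −93 bp and the gene.

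The upstream word pair, also chosen after the values had been seen, marked a second set. It was found before 35 members (10.1%), before 23.3% of snRNA genes, 30 of 129, and before 0.159% of all other nuclear genes, snRNA genes included. On the other strand of the members' windows it was found in 0.289%. It began between 53 and 63 bases upstream in 27 of the 35. Of the 35, 15 were called (42.9%, 28 to 59.1), against 53 of the 311 members without it (17%, 13.3 to 21.6). The counts were 15 in replicate 1 and 17 in replicate 2. By place, 10 of 18 intronic members with the pair were called and 5 of 17 intergenic ones. Of the 30 snRNA genes with the pair 8 were called (26.7%, 14.2 to 44.4), and of the 99 without it 9 (9.09%, 4.86 to 16.4), intervals that overlap.

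Most called intronic members carried a B box word or the pair, where the A box word alone is not counted. With a B box word or the pair, 22 of 38 intronic members were called (57.9%, 42.2 to 72.1), and 14 of 30 intergenic ones (46.7%, 30.2 to 63.9). With neither, the shares were 9 of 131 intronic (6.87%, 3.66 to 12.5) and 14 of 94 intergenic (14.9%, 9.08 to 23.5). The difference in the second class was −8.02 points (−17.2 to 0.0955). It was −9.09 in replicate 1 (−18.4 to −0.801), an interval without 0, and −8.62 in replicate 2 (−18.2 to 0.0591). Of the 236 members with no A box word, B box word or pair, 19 were called (8.05%, 5.21 to 12.2). That interval lies above the 3.89% of all nuclear genes. It includes the 6.66% of other genes no longer than 344 bp once piRNA genes were left out. That class still holds tRNA and snRNA genes, of which 31% and 13.2% were called over all lengths. The share without them was not computed, so the 6.66% is no background of unbound short genes. F09G2.14 and M7.15, among the 6 strongest members, had none of these words.

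Short genes were called most. Of the 56 members of at most 80 bp, 32 were called (57.1%, 44.1 to 69.2), with 31 in replicate 1 and 35 in replicate 2. The shares were 14.7% of the 75 members of 81 to 120 bp, 18.1% of the 105 of 121 to 150 bp and 5.45% of the 110 longer ones (2.52 to 11.4). The length bounds were chosen after the values had been seen. Called members had a median length of 87 bp, and uncalled ones 133 bp. Length and words went together, since 66.1% of the shortest group had 1 or more of the words and 24.5% of the longest. Within the shortest group, 23 of 28 members with a B box word or the pair were called (82.1%, 64.4 to 92.1) and 9 of 28 with neither (32.1%, 17.9 to 50.7). The latter class still holds members with the A box word alone. With 1 or more of the words, A box word included, 29 of 37 were called (78.4%, 62.8 to 88.6), out of the 32 called in that group. Among members over 150 bp, 1 of 14 with the pair was called. The words therefore did not go with a summit at every length, and the part of length by itself was not tested.

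**Figure D5:**
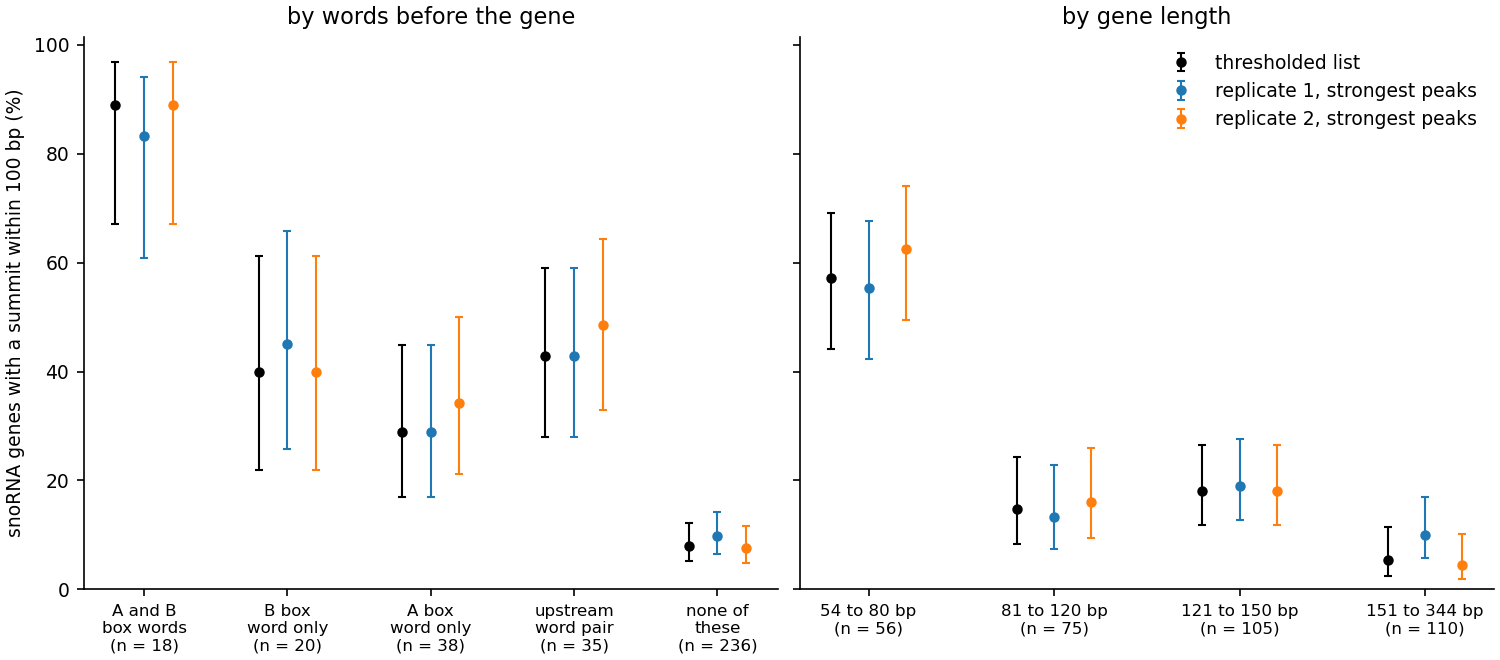
Share of snoRNA genes with a LIN-35 summit within 100 bp (y axis, percent) by words found before the gene (left) and by gene length (right), for the thresholded list and the strongest peaks of each replicate; bars are 95% Wilson intervals. Genes with both A and B box words stood at 88.9%, those with none of the words at 8.05%, and those of at most 80 bp at 57.1% on the thresholded list.

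Box C/D features were more common among called members, and H/ACA features were not. The D box word CTGA lay in the last 15 bases of 47.1% of called and 16.2% of uncalled members. The C box word TGATGA lay in the first 20 bases of 14.7% of called and 3.6% of uncalled members. An ACA in the last 10 bases was found in 26.5% of called and 30.2% of uncalled members. Read the other way, 32 of 77 members with the D box word were called (41.6%, 31.2 to 52.7) and 18 of 102 with the ACA word (17.6%, 11.5 to 26.2). These words are short, and 180 members had neither the D box nor the ACA word, so they are a rough guide to type; D box members were also short, 34 of the 77 having at most 80 bp.

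Summits at snoRNA genes were poorer than other summits in one of the DREAM-related words. The CHR element, TTCGAA or TTTGAA on either strand, lay within 100 bp of the summit in 21 of the 67 snoRNA peaks (31.3%, 21.5 to 43.2). It did so in 47.9% of the other nuclear peaks and in 55.3% of those near a coding 5′ end. The E2F site word TTNNCGC, with C or G at both N and read on either strand, was in 11 of the 67 (16.4%, 9.42 to 27.1), against 18.9% and 24.8%. The windows at snoRNA genes had a mean GC content of 48.5%, against 41.5% at other nuclear peaks, and the part of base composition in these shares was not tested. TTCGAA letters can overlap a B box word, and did so in 1 of the 24 called members with that word.

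Genes for the protein partners of snoRNAs had a summit within 500 bp of the 5′ end more often than coding genes at large. Of 14 listed genes for snoRNP proteins and snoRNA processing, 10 had such a thresholded summit (71.4%), against 8.61% of coding genes. Within 200 bp of the 5′ end the count was 3 of 14 (21.4%), against 4.49% of coding genes. The core box C/D protein genes were all among them: fib-1 (fibrillarin) with a signal of 128, nol-56 with 101, nol-58 with 373 and snu-13 with 68.1. Of the box H/ACA proteins, dkc-1 (dyskerin) had 124, Y48A6B.3 (the NHP2 protein) 374 and garr-1 (the GAR1 protein) 48.4, while nola-3 had no such summit. The genes for the nucleolar protein DAO-5, the ATPase RUVB-2 and the assembly factor SHQ1 (dao-5, ruvb-2 and Y48A6C.4) had 137, 132 and 114. The ATPase gene ruvb-1, the exonuclease gene xrn-2 and the cap-modifying enzyme gene tgs-1 had none. In each replicate alone 9 of the 14 were called. The summits counted for nol-58, snu-13, Y48A6B.3 and Y48A6C.4 lie nearer to the 5′ end of another coding gene. That of nol-58 is 319 bp from its own 5′ end and 13 bp from that of zip-4, and that of snu-13 is 291 bp from its own and 289 bp from that of rsp-7. The summit of Y48A6B.3 is 327 bp from its own 5′ end and 293 bp from that of fipr-17, and the summit of Y48A6C.4 is 331 bp from its own and 246 bp from that of sup-35. Their signals cannot be assigned to either gene from position alone.

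Few members sat near the 100 bp limit. The 3 called members with the farthest summits were Y39G10AR.24 at 93 bp, F39B2.14 at 90 bp and M163.14 at 88 bp, tied with ZK546.18. The nearest uncalled ones were C14C10.8 at 102 bp, F25H2.15 at 141 bp and T28B8.11 at 156 bp. Besides C04G6.12, 4 uncalled members had a summit among the strongest of both replicates. F25H2.15 had signals of 30.3 in replicate 1 and 46.6 in replicate 2, K02C4.7 had 34.2 and 29.9, C07A9.14 had 30.7 and 47.7, and C46C2.8 had 35 and 68. F25H2.15, K02C4.7 and C07A9.14 carry the upstream word pair. In C07A9.14 and C46C2.8, as in C04G6.12, no summit of the pooled relaxed list lay within 100 bp.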

How the data were processed

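LIN-35 ChIP-seq was deposited for 2 biological replicates of 1 group. The authors deposited relaxed peak lists for each replicate (30000 and 26192 peaks in ce11) and for the pooled replicates (30000), and a list of 2712 peaks thresholded by irreproducible discovery rate, made from both replicates per the deposited text indexes. The values used from these lists are the signal of each peak, on a scale the authors do not state, and the summit. The deposited q-values, given as −log10, are 3.78 for every thresholded peak and were not used. Which aligner and peak caller were run is not given in the sources used here. Read numbers and the control were not analysed here, so the depth is unknown, as is whether the same peaks occur in the control.

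Genes came from Ensembl release 115 and bases from the WBcel235 assembly, which is ce11; coordinates are 1-based. Intronic means wholly inside introns of coding genes on either strand with no exon overlap, and intergenic means no overlap with a coding gene. The replicate lists were shortened to their 2712 strongest peaks, and replicates enter the thresholded list, which is no independent check of them. Shares have 95% Wilson intervals, the difference of 2 shares has Newcombe's interval from them, and a count of 0 allows 3 counts of the total. No test was made, since there is no contrast between samples, and neighbouring genes can share a peak. Counting code was checked on simulated data. Python 3.11.15, pandas 2.3.3 and scipy 1.17.1 were used.

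The members, the snoRNP list and the comparisons were chosen with earlier results of these data known, and the box words, the word pair, the length bounds and the split of hosts after the values had been seen. Named genes were the 15 intergenic and 10 intronic called members of highest signal, all called exon-overlapping members, the 3 on each side of the 100 bp limit, uncalled members among the strongest of both replicates and the snoRNP list. Genes named outside this rule as hosts, or as examples of a word, were chosen after their values were seen. The alternatives tried were other distances, peak intervals, the 5′ end only, the stronger 1356 peaks, single replicates, merged peaks, loci of 500 bp, autosomes, other host definitions, other coding distances and other sequence windows. The ce10 lists were not used.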

Additional observations from a re-analysis of the deposited data

How the results depend on the processing

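The count of 68 called snoRNA genes stayed between 46 and 87 at distances of 50, 200 and 500 bp, and was 49 with the stronger 1356 peaks and 55 with summits among the strongest of both replicates. Only the requirement that the summit lie inside the gene moved it by more than 1.5 times, to 13, because most summits lie upstream. Leaving out a replicate gave 71 to 72. The intronic minus intergenic difference, −4.24 points, lay between −6.44 and −4.88 with 1 replicate left out. It changed sign to 5.05 points (22.4% against 17.3%) for members over 500 bp from every coding 5′ end, with an interval that includes 0, and was −35.5 points (−54.8 to −15.2) for those within 500 bp. Over all intronic and intergenic members its interval included 0 at each distance and on each list tried. The gap between members near and far from coding 5′ ends, 1.79 points, was 1.04 at 200 bp and 2.26 at 1000 bp. The snoRNP count of 10 was 3 at 200 bp and 11 at 1000 bp, and 9 in each replicate. With 50 bp on each side of the summit, E2F site words were in 8.96% and the CHR element in 7.46% of snoRNA peaks, against 14% and 27.6% of other nuclear peaks. The share called with both box words was 83.3% to 88.9% with 1 replicate left out, and with the word pair 42.9% to 48.6%; these alternatives, and other word windows that kept both shares within their intervals, were added after seeing the data. No paired analysis was possible because both samples belong to 1 group. The number of reads behind each list is unknown, so a member without a summit may lack LIN-35 or depth, and 18 members with both box words and 35 with the pair leave wide intervals.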
